A study of Mus musculus with 12 samples.

Results

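Mutant mice that had lost CREB and CREM were compared with control mice 1 h after an intraperitoneal injection of kainate at 20 mg/kg, using total RNA of the hippocampus on Affymetrix MG-U74A arrays. The comparison takes 3 mutant kainate arrays and 3 control kainate arrays, chosen by the sample titles, which is 6 of the 12 arrays of the series. The other 6 arrays carry saline-injected control animals (3 arrays) and saline-injected mutant animals (3 arrays), and they are used here for the shared error estimate and as the level without kainate. All groups were littermate males and females of 5 to 6 weeks, caged singly and handled for 5 days, and each array carries RNA pooled from 3 animals. The loss of CREB and CREM is named in the title of the series only. The labels do not give how the mutants were made, in which cells the genes were lost, or the strain.

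CREB and CREM are related transcription factors that bind the cAMP response element, a short palindrome, and are activated by phosphorylation when calcium or cAMP rises in a neuron. CREM also gives rise to a short repressor, ICER, from an internal promoter that is itself switched on by CREB. Kainate is an agonist of glutamate receptors that drives seizure activity in the hippocampus, and it induces immediate early genes, whose transcription needs no new protein, within the first hour. The question of the comparison is which of these genes, and which other genes, read differently in the mutant hippocampus at that time.

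Values are GCRMA expression on a log2 scale, so that a difference of 1 stands for a 2-fold change in signal, and they ranged from -0.78 to 14.35. The array holds 12488 probe sets, which are sets of short probes that read 1 transcript or, in some cases, several alike. Of these, 66 control sets were dropped and the remaining 12422 were tested by limma in 1 fit over all 12 arrays. A probe set passed when its p-value, adjusted over all 12422 by the Benjamini-Hochberg method, was under 0.05. Differences are given as mutant minus control under kainate, with the standard error (SE) of the fit and n = 3 arrays per group. A microarray gives no count of molecules, so the number of arrays limits the precision.

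An array of the compared groups stood apart before any test. Control kainate replicate 3 had an interquartile range of 3.74 over its probe sets, against 4.40 to 4.61 on the other 11 arrays, while array medians ran from 4.23 to 4.47 and correlations between arrays from 0.973 to 0.998. The narrow array pulled the median difference of the 3106 dimmest probe sets to -0.117 and that of the 3106 brightest to 0.097, and without it these medians were -0.018 and 0.009. Over all probe sets the median difference was -0.076, or -0.016 without that array. In every group but control kainate, replicate 1 deviated from the group mean in the opposite direction to replicates 2 and 3, so a fit of replicates 2 and 3 alone is given below. Results are therefore also given without control kainate replicate 3 where a call changed. Each of the 12 arrays was also left out in turn. Leaving out a saline array keeps every kainate difference as it was and changes only the error estimate and the adjusted p.

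Under kainate, 44 of 12422 probe sets (0.354%) passed, 27 of them higher in mutants (0.217%) and 17 lower (0.137%), and 616 had an unadjusted p under 0.05. In all 44 the mutant and control kainate arrays did not overlap. Such separation was not rare over the whole array: all 3 mutant arrays lay above all 3 control arrays in 500 probe sets (4.03%) and below them in 617 (4.97%). The 44 include 38 with 1 gene symbol, which stand for 35 genes, 23 higher and 12 lower. With the replicate number as a block, 67 passed, 48 higher and 19 lower, of which 39 were among the 44. Without control kainate replicate 3, 30 of the 44 passed and all 44 kept their sign, and the losses were 12 of the higher and 2 of the lower probe sets. Scaling changed the balance of directions: 61.4% of calls were higher as deposited, 42.9% of 42 calls after quantile normalisation (18 higher, 24 lower) and 80.0% of 20 calls after centring each array on its median (16 higher, 4 lower).

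The targeted genes could not be checked with these probe sets. The 3 Creb1 probe sets (chromosome 1) were dim, at the 26.0, 32.2 and 45.0 percentile of levels. The brightest, 102673_at, read 3.88, 3.87 and 4.34 in the control kainate arrays and 3.85, 3.80 and 3.87 in the mutant kainate arrays, and the difference of -0.19 came from control kainate replicate 3 (-0.035 without it). Saline arrays of both genotypes lay at 3.816 to 4.005 there. For Crem (chromosome 18), probe set 160526_s_at read 4.51, 4.80 and 4.80 in control kainate arrays and 4.16, 4.12 and 4.31 in mutant kainate arrays, a difference of -0.51 (SE 0.10, adjusted p = 0.0889), which did not pass except without control kainate replicate 1 (-0.60, adjusted p = 0.042). The second Crem probe set, 100533_s_at, differed by -0.34 (adjusted p = 0.512), and saline arrays of control and mutant animals differed by -0.08 and -0.16 on these 2 probe sets. Whether any of these probe sets lies in the deleted part of its gene is not given in the sources used here.

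Of the 12 genes that were lower in mutants, 7 had all control kainate arrays above all control saline arrays (among them Nr4a2, Atf3, Gadd45b, Nfil3, Siah2 and Gpr19). Of these, Nr4a2, Atf3 and Nfil3 encode transcription factors. Gadd45b, Siah2 and Gpr19 encode a stress-response protein, a ubiquitin ligase and an orphan G protein-coupled receptor. Stk16, Rmdn3, D430019H16Rik, Gspt2 and Cyp51 make up the rest, and their control kainate and control saline arrays overlapped. The share of all probe sets with control kainate arrays above control saline arrays was not counted. The 12 were also chosen for control kainate values above mutant ones, which favours high control kainate values, so this split only describes them.

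CREB family factors bind the 8-base element TGACGTCA and its 5-base core TGACG, so the 300-base windows around the RefSeq starts of the lower genes (GRCm38.p6, 250 bases before the start to 50 after it) were searched for both on both strands. The full element holds 2 overlapping cores. Of the 12 lower genes, 10 had a window, and 7 of these (70.0%) held the core and 1 the full element. The same search found the core in 6 of 18 higher genes with a window (33.3%) and the full element in 0 of them. Over the 6572 genes of the array that had a window, 33.0% held the core and 3.16% the full element, and over all 32851 RefSeq windows of this kind the shares were 20.8% and 1.79%. A match of letters is a description and not evidence of a bound site. The Nr4a2 stretch begins at the far end of its window and the Atf3 stretch ends at the base before the start. They belong to the lower gene with the most cores and to Atf3, whose core lies nearest to the start, and capitals mark the matches, with CGTCA being the core read on the other strand.
Nr4a2, minus strand of chr2:57124050-57124253: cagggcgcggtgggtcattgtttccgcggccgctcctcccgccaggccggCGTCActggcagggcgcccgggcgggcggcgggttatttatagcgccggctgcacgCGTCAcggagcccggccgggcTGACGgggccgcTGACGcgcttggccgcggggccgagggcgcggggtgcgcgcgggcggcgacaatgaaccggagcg
Atf3, minus strand of chr1:191183334-191183400: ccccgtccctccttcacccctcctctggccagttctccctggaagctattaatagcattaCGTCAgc
In Nr4a2 the 4 cores begin at positions -200, -144, -123 and -111 from the start. The core of Atf3 begins at -7. The windows of Gadd45b, Stk16 and D430019H16Rik held neither sequence, and Siah2 and Gspt2 had no window. A gene was counted when any of its windows held a match, and Gpr19 had the core in only 1 of several. The core of Rmdn3 begins after the start, at 11. Rmdn3 and Cyp51, whose control kainate and control saline arrays overlapped, are among the 7 genes with the core.

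Nr4a2, an orphan nuclear receptor and immediate early gene, had the largest fall of any named gene. Probe set 92248_at (chromosome 2) read 8.48, 8.94 and 7.94 in control kainate arrays and 5.70, 5.47 and 5.52 in mutant kainate arrays. All mutant kainate arrays lay below the control saline arrays as well, which read 6.28, 7.08 and 7.21, while mutant saline arrays read 4.13, 5.19 and 5.47. The difference under kainate was -2.89 (SE 0.36, adjusted p = 0.00989), a 7.40-fold lower signal, and -3.14 without control kainate replicate 3. The call was lost only when mutant kainate replicate 3 was left out (adjusted p = 0.0623). A second Nr4a2 probe set, 92249_g_at, differed by -3.26 (SE 0.49, adjusted p = 0.0259), and its call was lost with any of 7 arrays left out (adjusted p 0.0562 to 0.113). Under saline the difference was -1.93 on the first probe set (adjusted p = 0.129) and did not pass.

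Atf3, an ATF/CREB family factor brought up by cell stress, was read by 2 probe sets that passed and 1 dim probe set that did not (161645_r_at, -0.06). On 104156_r_at the control kainate arrays read 5.93, 5.71 and 5.32 and the mutant kainate arrays 4.06, 4.31 and 3.77. The 6 saline arrays read between 3.55 and 3.87, so that mutant kainate replicate 3 lay within the saline range, the other mutant kainate arrays a little above it, and all control kainate arrays well above it. The difference was -1.61 (SE 0.17, adjusted p = 0.00444), 3.05-fold lower, and the call was kept with each of the 12 arrays left out. On 104155_f_at the control kainate arrays read 9.58, 9.22 and 8.21 and the mutant kainate arrays 7.50, 7.35 and 6.92, against 4.21 to 4.53 in all saline arrays. On this probe set the mutants thus lay between the saline level and the control kainate level. Its difference was -1.75 (SE 0.29, adjusted p = 0.0382), and any array left out except control kainate replicate 3 ended the call (adjusted p 0.0614 to 0.191).

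Gadd45b, which acts in DNA demethylation and growth arrest after neuronal activity, passed on both of its probe sets. On 102779_at (chromosome 10) the control kainate arrays read 8.68, 8.14 and 7.81 and the mutant kainate arrays 6.75, 6.60 and 6.54. Saline arrays of both genotypes read 5.74 to 5.93, so mutants reached a level above saline but below every control kainate array. The difference was -1.58 (SE 0.17, adjusted p = 0.00465), 2.98-fold lower, and was kept with each array left out. The other probe set, 161666_f_at, gave -1.82 (adjusted p = 0.0137), which was lost without control kainate replicate 2 or without mutant kainate replicate 1 or 3 (adjusted p 0.0561 to 0.0801).

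Nfil3, a repressor that binds D-box elements of clock-controlled genes, read 7.52, 7.25 and 6.72 in control kainate arrays and 5.99, 5.67 and 4.97 in mutant kainate arrays. All 6 saline arrays read 4.305 to 4.76, and both kainate groups lay above them. The difference was -1.62 (SE 0.25, adjusted p = 0.0309), 3.08-fold lower. It was lost with any of 9 arrays left out, at an adjusted p of 0.0509 to 0.0955, but not without control kainate replicate 3 (-1.84, adjusted p = 0.0259).

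Siah2, a RING-type ubiquitin ligase, showed mutant kainate arrays within or below the range of the saline arrays. Control kainate arrays read 7.999, 7.584 and 6.82, with replicate 3 the lowest, and mutant kainate arrays read 6.30, 5.89 and 5.86. The saline arrays read 6.54 to 6.67 in controls and 6.26 to 6.44 in mutants. The difference of -1.45 (SE 0.24, adjusted p = 0.0382) became -1.78 without control kainate replicate 3 (adjusted p = 0.00196), and leaving out any of the other 11 arrays ended the call (adjusted p 0.0561 to 0.191).

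Gpr19 gave a like picture at a smaller size. The control kainate arrays read 7.06, 7.07 and 6.54, and the mutant kainate arrays 6.01, 6.24 and 5.98. Saline arrays lay at 5.97 to 6.11 in controls and 5.99 to 6.03 in mutants, so the mutant kainate range held the saline values of its own genotype. The difference was -0.81 (SE 0.14, adjusted p = 0.0382), 1.76-fold lower. It was -0.99 (adjusted p = 0.00188) without control kainate replicate 3, and leaving out any of the other 11 arrays ended the call (adjusted p 0.0602 to 0.209). A probe set without a gene name, 102102_at, moved the same way, with 4.71, 4.74 and 4.41 in control kainate arrays and 3.77, 3.70 and 3.77 in mutant kainate arrays (difference -0.87, adjusted p = 0.00518). Its saline arrays read 3.71 to 3.91, and its call was kept with each array left out.

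**Figure D1:**
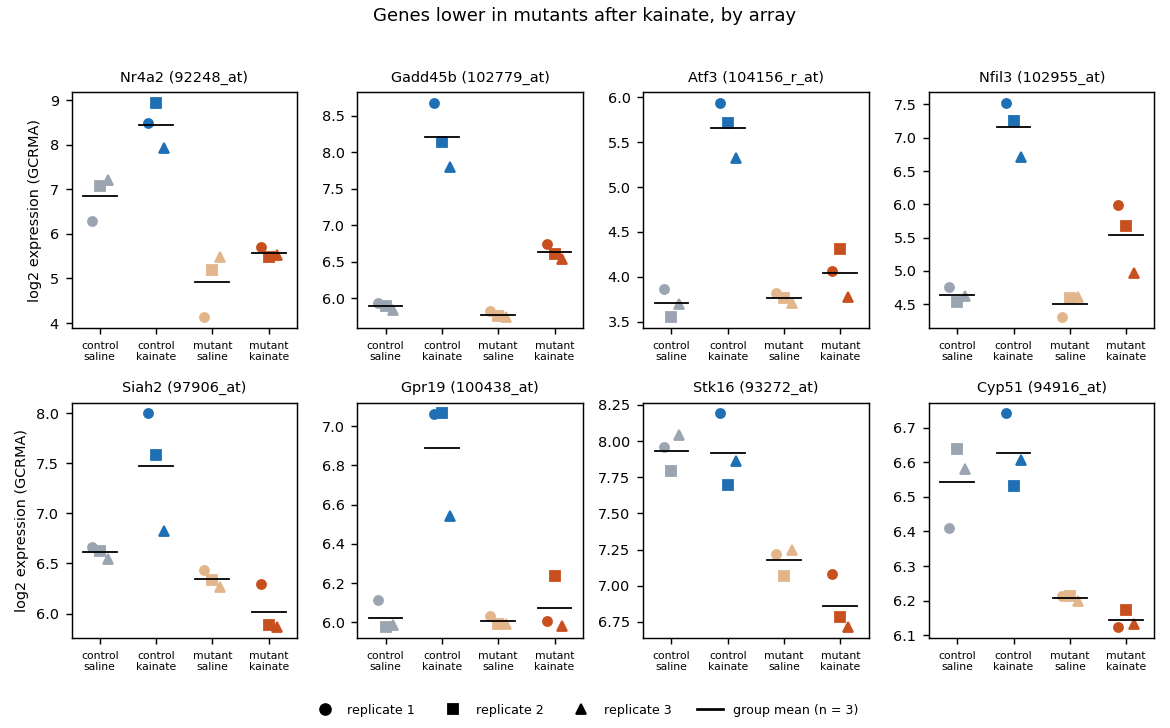
Log2 GCRMA expression (vertical axis, a separate range in each panel) of 8 genes that were lower in mutants after kainate, by group, with each array as a point, its replicate number as the point's shape, and the group mean (n = 3) as a line. In Nr4a2, Gadd45b, Atf3, Nfil3, Siah2 and Gpr19 the control kainate arrays stand above the control saline arrays and above all mutant kainate arrays, while in Stk16 and Cyp51 both control groups stand above both mutant groups.

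In another set of lower genes the control kainate arrays did not stand above the control saline arrays, and the genotypes separated under saline too. Separation under saline was not particular to this set. All mutant saline arrays lay below all control saline arrays in 10 of the 17 lower probe sets, beside 402 of all 12422. The 10 include both Nr4a2 probe sets, Gadd45b 102779_at and Siah2. Stk16, a membrane-associated serine/threonine kinase, read 8.19, 7.70 and 7.86 in control kainate arrays and 7.08, 6.79 and 6.71 in mutant kainate arrays, a difference of -1.06 (SE 0.14, adjusted p = 0.0134), beside -0.75 under saline (adjusted p = 0.125). Its call was lost without mutant kainate replicate 2 or 3 (adjusted p 0.0684 to 0.0778). Rmdn3, a protein that tethers mitochondria to the endoplasmic reticulum, differed by -0.88 (SE 0.14, adjusted p = 0.0277) under kainate and by -0.98 under saline (adjusted p = 0.0224), and was the only lower probe set that passed under both treatments. Its control arrays of both treatments read 7.81 to 8.27 and its mutant arrays 6.89 to 7.26. The kainate call of Rmdn3 was lost with any of 7 arrays left out (adjusted p 0.0581 to 0.145). Probe set 98614_at, which has no gene name, differed by -1.16 under kainate (adjusted p = 0.0259) and -1.08 under saline, and 6 arrays each ended its call when left out (adjusted p 0.0562 to 0.111).

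The 3 smallest falls rest on less. D430019H16Rik differed by -0.60 (adjusted p = 0.0449, or 0.0617 with the replicate block). Gspt2, a translation termination factor, differed by -0.50 (adjusted p = 0.0412, or 0.0502 with the block), and Cyp51, the lanosterol demethylase of cholesterol synthesis, by -0.48 (adjusted p = 0.0438, or 0.0774 with the block). Without control kainate replicate 3, the calls of Gspt2 (adjusted p = 0.069) and Cyp51 (0.0558) were lost. Each of these 3 calls was ended by leaving out any of 11 arrays, with adjusted p up to 0.252 for Gspt2 and 0.23 for D430019H16Rik and Cyp51.

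Most immediate early genes did not pass. Of 34 measured immediate early transcription factors and early response genes, 3 were lower in mutants (Nr4a2, Atf3, Nfil3), 0 were higher, and 31 did not pass. Among all 8251 genes with 1 symbol, 12 were lower and 23 higher, which is the background of this and every later list count. The median difference of the list was -0.008, beside -0.043 over the 8251 genes with 1 symbol, and it was 0.066 after median centring, where 1 member was lower. This and the other gene lists were chosen with earlier results of these data known, so their counts only describe these arrays. Fos, the AP-1 subunit most used as a marker of neuronal activity, read 13.04, 13.13 and 12.98 in control kainate arrays and 13.19, 13.01 and 12.89 in mutant kainate arrays. These groups overlap, and the difference of -0.02 had a 95% interval of -0.31 to 0.28. In saline arrays Fos read 8.05 to 8.40 in controls and 6.89 to 7.29 in mutants, a difference that passed (-1.16, adjusted p = 0.00809).

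Other activity-regulated genes were bounded in the same way. Egr1, a zinc-finger factor, differed by -0.13 (95% interval -0.42 to 0.16), and its relative Egr2 by -0.15 (-0.52 to 0.22). The AP-1 subunit Fosb differed by -0.10 with a wide interval of -0.96 to 0.76, which takes in a 1.5-fold change in either direction. Ier2, an immediate early response protein, differed by 0.23 (-0.16 to 0.63) under kainate, although it was 1.32 higher in mutants under saline (adjusted p = 0.0205). Outside the list, Dusp1, a phosphatase that turns off MAP kinases, differed by 0.10 (-0.14 to 0.33).

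Some immediate early genes separated the arrays without passing. Nr4a1, the closest relative of Nr4a2, read 11.16, 11.05 and 10.95 in control kainate arrays and 10.49, 10.65 and 10.32 in mutant kainate arrays (difference -0.57, SE 0.16, adjusted p = 0.428). Junb, an AP-1 subunit, read 10.95, 10.61 and 10.67 against 10.27, 10.38 and 9.98 (-0.53, 95% interval -0.91 to -0.15, adjusted p = 0.53). Btg2, an antiproliferative early response gene, differed by -0.34 (adjusted p = 0.53). In these 3 genes all mutant kainate arrays lay below all control kainate arrays, as they did in 9 of the 34 list members, beside 4.97% of all probe sets. In 6 of the 34 they lay above all control kainate arrays, beside 4.03% of all probe sets, so the list separated in both directions. Id3, an inhibitor of basic helix-loop-helix factors, was 0.80 higher in mutants and did not pass in the fit without a block (adjusted p = 0.257), but passed with the replicate block (0.0222) and with replicate 1 as a batch (0.0173).

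**Figure D2:**
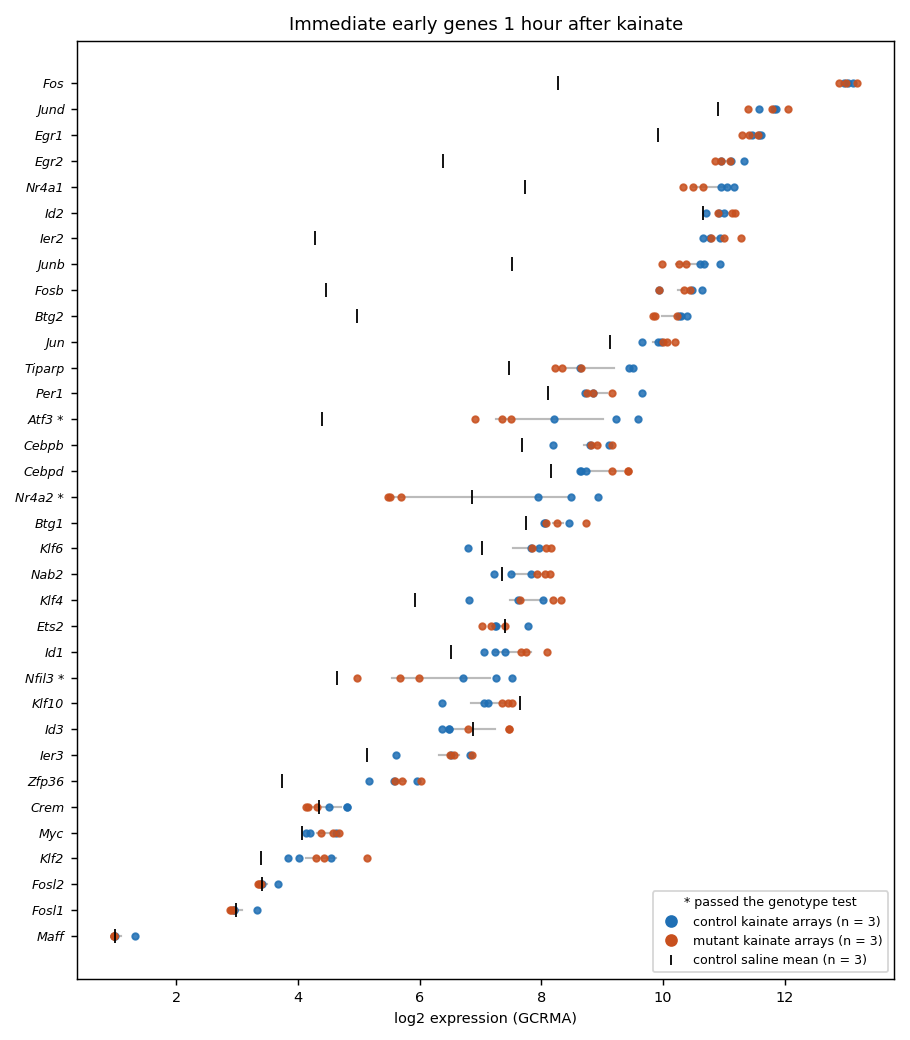
Log2 GCRMA expression (horizontal axis) of the 34 measured immediate early genes in the 3 control kainate arrays (blue) and the 3 mutant kainate arrays (orange), ordered by the control kainate mean, with a grey line between group means and a black tick at the control saline mean (n = 3). Points of both genotypes overlap in genes such as Fos, Egr1 and Fosb, while in Nr4a2, Atf3 and Nfil3, marked with an asterisk because they passed, the orange points lie below the blue ones.

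Of 36 measured effector genes of neuronal activity, such as growth factors, enzymes and small GTPases, 3 were lower in mutants (Gadd45b, Siah2, Gpr19) and 1 was higher (Rasl11b), with a median difference of -0.10. Among all 8251 genes with 1 symbol, 12 were lower and 23 higher. After median centring 1 of the 36 was lower and 0 were higher. Bdnf, the neurotrophin brain-derived neurotrophic factor, read 11.33, 11.97 and 11.55 in control kainate arrays and 10.97, 11.69 and 11.40 in mutant ones, which overlap (difference -0.26, 95% interval -0.86 to 0.35). The prostaglandin synthase Ptgs2 differed by 0.31 (-0.36 to 0.97). Rgs2, a regulator of G protein signalling, read 11.28, 11.67 and 11.10 against 10.59, 11.02 and 10.99, which do not overlap, and did not pass (-0.48, adjusted p = 0.53). Ppp1r15a, a stress-induced regulator of eIF2alpha phosphorylation, had a larger difference of -1.04 (SE 0.32) that did not pass either (adjusted p = 0.512). The small GTPase Gem was 0.77 higher in mutants with overlapping arrays (adjusted p = 0.383).

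Rasl11b, a small GTPase of the Ras family, was the only gene on these activity lists that was higher in mutants. Control kainate arrays read 9.96, 9.94 and 9.88 and mutant kainate arrays 10.41, 10.49 and 10.36, while saline arrays read 9.23 to 9.36 in controls and 8.93 to 9.21 in mutants. Mutants therefore lay lower than controls under saline (-0.21, not passing) and higher under kainate (0.49, SE 0.09, adjusted p = 0.0449). The call was lost with the replicate block (adjusted p = 0.07), without control kainate replicate 3 (0.0893) and with any of 11 single arrays left out (0.0619 to 0.234).

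Among 43 measured genes known as CREB targets, 5 were lower in mutants (Nr4a2, Atf3, Gadd45b, Nfil3, Siah2), 0 were higher and 38 did not pass. After median centring 2 were lower, and without control kainate replicate 3 there were 6. Among all 8251 genes with 1 symbol, 12 were lower and 23 higher in the fit over all arrays. The median difference of the list was -0.144, or -0.169 without control kainate replicate 3 and -0.069 after median centring. A negative difference was found in 29 of 43 members, beside 4632 of all 8251 genes. All mutant kainate arrays lay below all control kainate arrays in 16 of the 43 (4.97% over all probe sets). The list was chosen with earlier results of these data known, so these counts are not independent evidence about CREB targets. Members of this list also belong to the immediate early list (14 genes) and the effector list (17 genes), so the counts are not separate. Targets that did not pass include the neuropeptide precursor Penk (-0.66, adjusted p = 0.521), the granin Scg2 (-0.32, 0.528, but -0.43 and 0.0322 without control kainate replicate 3), Fos, Bdnf and the insulin receptor substrate Irs2. Irs2 read 2.99, 5.69 and 5.51 in control kainate arrays and 2.22, 3.31 and 4.29 in mutant kainate arrays, so that the groups overlapped although each mutant array lay below the control array of the same number. The difference of -1.46 passed with the block (adjusted p = 0.0484) and with replicate 1 as a batch (0.0336), and not in the fit without either. Of 11 measured CREB, CREM and ATF factors and coactivators, Atf3 was the 1 that passed. By limma, 0 of 27 protein kinase A and cAMP signalling genes and 0 of 7 MAP kinase feedback inhibitors passed, with 2 and 1 at an unadjusted p under 0.05. That threshold was met by 616 of all 12422 probe sets.

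The genes that were higher in mutants were led by genes of microglia, complement and lysosomes. Of the 27 higher probe sets, 26 had a difference of the same sign under saline and 10 passed there. Cd52, a surface glycoprotein of leukocytes and microglia, had the largest rise of any named gene, at 2.82 (SE 0.27, adjusted p = 0.00286), or 7.06-fold. Its control kainate arrays read 3.15, 3.08 and 3.40 and its mutant kainate arrays 5.75, 6.09 and 6.26. Mutant saline arrays read 4.64, 5.35 and 4.03, between the control arrays (2.80 to 2.93 under saline) and the mutant kainate arrays.

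Tyrobp, the adaptor that carries signals from the microglial receptor TREM2, read 6.27, 6.24 and 6.13 in control kainate arrays and 7.78, 7.76 and 8.48 in mutant kainate arrays (difference 1.80, SE 0.17, adjusted p = 0.00286), with a difference of 1.73 under saline (adjusted p = 0.0039). Mpeg1, a pore-forming protein of phagocytes, read 6.71, 6.85 and 7.19 against 8.04, 8.19 and 8.56 (difference 1.35, adjusted p = 0.00444). Laptm5, a lysosomal membrane protein of blood cells and microglia, read 7.42, 7.53 and 7.11 against 8.31, 8.28 and 8.46 (difference 1.00, adjusted p = 0.00598). The calls of Cd52, Tyrobp, Mpeg1 and Laptm5 held whichever array was left out. Ctss, the cathepsin of microglia and other antigen-presenting cells, differed by 0.90 (adjusted p = 0.0277), a call that any of 7 arrays ended when left out (adjusted p 0.0509 to 0.141). Lgals3bp, a secreted scavenger-receptor protein, differed by 0.69 (adjusted p = 0.048) but not without control kainate replicate 3 (0.143), and 10 single arrays ended its call (0.0728 to 0.264).

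Over the 45 measured microglial and macrophage markers, these 6 were higher, 0 were lower and 39 did not pass, with a median difference of 0.184. Among all 8251 genes with 1 symbol, 23 were higher and 12 lower, with a median of -0.043. After quantile normalisation 3 of the 45 passed. With the replicate block 11 passed, adding Cyba (difference 1.58, adjusted p = 0.00473), Cd68 (1.59, 0.0114), Cd53 (0.88, 0.0143), Csf1r (0.74, 0.0351) and Lyz2 (1.40, 0.0375). Csf1r, the receptor microglia need to survive, read 9.06, 9.21 and 9.10 in control kainate arrays and 9.95, 9.85 and 9.79 in mutant ones. The mean over the list ran from 4.627 to 4.780 in control kainate arrays and from 5.096 to 5.212 in mutant kainate arrays, beside 4.584 to 4.650 in control saline and 4.931 to 5.150 in mutant saline arrays. All mutant kainate arrays lay above all control kainate arrays in 18 of the 45 (4.03% over all probe sets). Other defining markers did not separate: Itgam, Cx3cr1 and Aif1 differed by -0.07, -0.05 and 0.10, and Itgam was dim on all arrays (2.38 to 2.60). In tissue RNA, more cells of a type and more RNA per cell cannot be told apart.

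The complement genes that were higher encode the C1q chains and clusterin. C1qa read 9.13, 8.68 and 8.97 in control kainate arrays and 10.17, 10.01 and 10.19 in mutant kainate arrays (difference 1.19, SE 0.14, adjusted p = 0.00598), and C1qb differed by 1.21 (SE 0.13, adjusted p = 0.00444). Both calls were kept with each array left out, and both passed under saline, with differences of 0.97 and 1.14. C1qc differed by 1.34 (adjusted p = 0.0325) but did not pass without control kainate replicate 3 (0.0558), and 8 single arrays ended its call (0.0558 to 0.159). Clu, the extracellular chaperone clusterin, differed by 0.53 (adjusted p = 0.0325), a call lost with any of 9 arrays left out (0.0509 to 0.179). Of the 26 measured complement genes, these 4 were higher and 0 were lower, beside 23 higher and 12 lower of all 8251 genes. The median of the list was -0.123, and 0.001 after quantile normalisation, so it has no stable sign. Probe set 103033_at, assigned to several complement genes and therefore not named, had a difference of 2.25 (adjusted p = 0.0137) and 2.32 under saline, and was lost without control kainate replicate 2 or mutant kainate replicate 1 or 3 (adjusted p 0.0561 to 0.0778).

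Antigen presentation gave 3 higher genes of 27 measured, with a median difference of 0.043, and 1 after quantile normalisation or 2 after median centring or without control kainate replicate 3. Psmb8, an inducible subunit of the immunoproteasome, read 4.56, 4.48 and 4.28 in control kainate arrays and 5.56, 5.46 and 6.11 in mutant kainate arrays (difference 1.27, SE 0.17, adjusted p = 0.0122), and was kept with each array left out. Cd74, the invariant chain of MHC class II, read 5.27, 5.10 and 4.33 against 6.42, 6.14 and 6.51 (difference 1.46, SE 0.25, adjusted p = 0.0449). It did not pass without control kainate replicate 3 (adjusted p = 0.0955), which was the lowest of its group, and 10 single arrays ended its call (0.0587 to 0.23). Ctss is the third member. Tapbp, which loads peptides onto MHC class I, was 0.80 higher and passed with the block (adjusted p = 0.0175) or with replicate 1 as a batch (0.0308) but not without, and the class I gene H2-K1 was 0.93 higher without passing (adjusted p = 0.154). Of 41 interferon response genes, 2 were higher (Psmb8 and Lgals3bp). Beside both list counts, 23 of all 8251 genes with 1 symbol were higher and 12 lower. By limma, 0 of 57 chemokines, cytokines and their receptors passed, with 6 at an unadjusted p under 0.05, beside 616 of all 12422 probe sets. The largest differences were 2.29 for the chemokine Ccl9 (adjusted p = 0.212) and 1.39 for the oncostatin M receptor Osmr (0.077, but 0.0076 without mutant kainate replicate 2).

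Lysosomal genes had the highest list median, 0.229 over 50 measured genes, beside 0.101 under saline. That rank did not hold without control kainate replicate 3, where the lysosomal median was 0.163 and those of the microglial and reactive astrocyte lists 0.243 and 0.192, or after quantile normalisation (0.15, 0.186 and 0.207). Of the 50 lysosomal genes, 5 were higher (Laptm5, Man2b1, Ctss, Ctsd, Hexa) and 0 were lower, beside 23 higher and 12 lower of all 8251 genes. In 18 of the 50 all mutant kainate arrays lay above all control kainate arrays (4.03% over all probe sets). The protease Ctsd read 9.24, 8.89 and 9.23 in control kainate arrays and 10.02, 9.61 and 9.95 in mutant kainate arrays (difference 0.74, adjusted p = 0.0382). Man2b1, a lysosomal mannosidase, differed by 1.11 (adjusted p = 0.0372), and Hexa, the alpha subunit of beta-hexosaminidase, by 0.54 (adjusted p = 0.0382). Without control kainate replicate 3, Ctsd (adjusted p = 0.0558) and Man2b1 (0.132) did not pass. Left out singly, 11 arrays ended the call of Ctsd (0.0558 to 0.205), 10 that of Hexa (0.0595 to 0.175) and 9 that of Man2b1 (0.053 to 0.162). After quantile normalisation 2 lysosomal genes passed, and 3 after median centring or without control kainate replicate 3. With the block 8 passed, adding Ctsz (1.40, adjusted p = 0.00683), the progranulin gene Grn (0.82, 0.00747) and Cd68. The microglial and lysosomal lists share 3 genes.

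Among astrocyte genes there were few calls. Clu was the 1 of 28 measured astrocyte markers that passed, and the list median was 0.157. Gfap, the intermediate filament of astrocytes, read 9.60, 9.61 and 9.78 in control kainate arrays and 11.07, 11.15 and 11.26 in mutant kainate arrays. These groups lie far apart, but the spread of the saline arrays was wide (8.64 to 9.69 in controls, 10.32 to 11.48 in mutants), and the difference of 1.497 (SE 0.30) did not pass (adjusted p = 0.0981). It passed with the block (0.0459), in some other alternatives such as only the arrays compared (0.0266), and without mutant saline replicate 1 (0.0417). Of 38 reactive astrocyte genes, 1 passed (Psmb8), or 3 with the block, which added Gfap and the galectin Lgals1 (0.69, adjusted p = 0.0183). In this list 11 had all mutant kainate arrays above all control kainate arrays (4.03% over all probe sets).

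**Figure D3:**
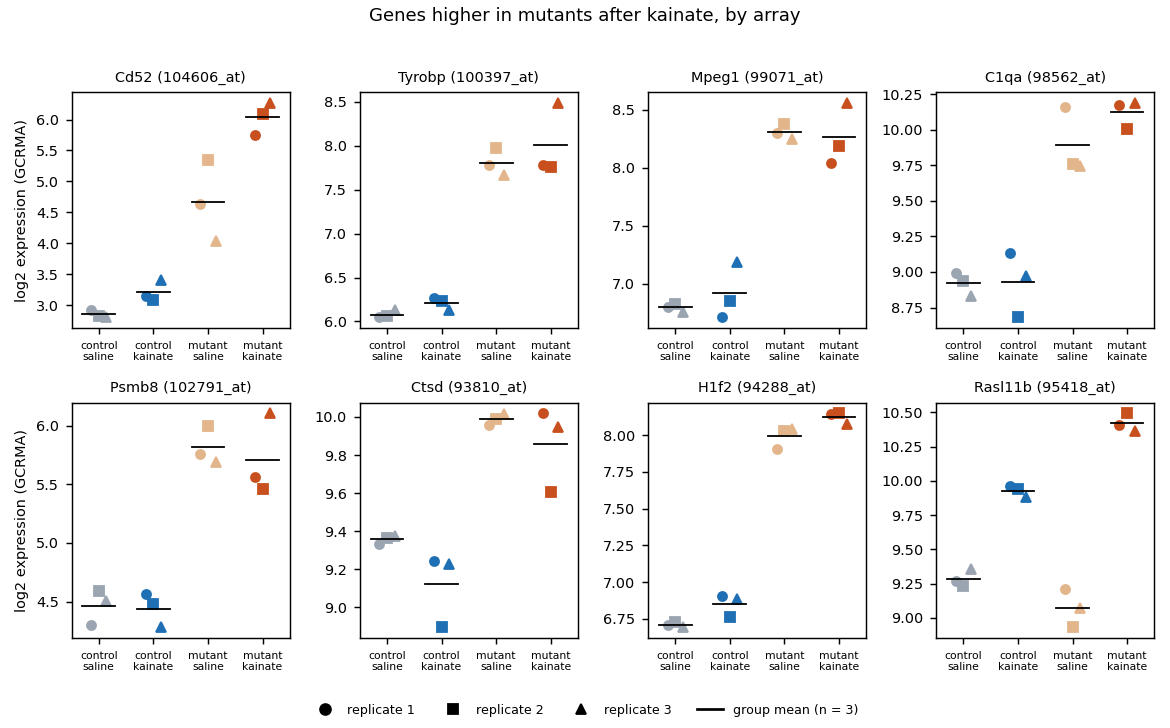
Log2 GCRMA expression (vertical axis, a separate range in each panel) of 8 genes that were higher in mutants after kainate, by group, with each array as a point, its replicate number as the point's shape, and the group mean (n = 3) as a line. In Cd52, Tyrobp, Mpeg1, C1qa, Psmb8, Ctsd and H1f2 both mutant groups stand above both control groups, while Rasl11b rises above the control kainate arrays in the mutant kainate arrays only.

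The smallest adjusted p of all probe sets belonged to a histone gene. H1f2, a linker histone, read 6.90, 6.76 and 6.88 in control kainate arrays and 8.14, 8.15 and 8.07 in mutant kainate arrays, a difference of 1.27 (SE 0.07, adjusted p = 4.76e-05), and 1.29 under saline (adjusted p = 4.31e-05). It was the 1 of 11 measured histone genes with their own symbol that passed, and kept its call with each array left out. Probe set 93833_s_at, assigned to several H2B genes, differed by 0.81 (adjusted p = 0.0137) and was lost without mutant kainate replicate 2 or 3 (0.0717 to 0.0778). Probes of replication-dependent histones can read several near-identical copies, so these values are uncertain as to the gene.

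The remaining higher genes fall outside these lists. Coq7, an enzyme of ubiquinone synthesis, differed by 1.19 (adjusted p = 0.0168), with control kainate arrays at 7.33, 6.752 and 6.502 and mutant kainate arrays at 8.079, 7.998 and 8.075; 4 arrays each ended its call (adjusted p 0.0595 to 0.0911). The membrane protein Tmem176a differed by 1.05 (adjusted p = 0.0196, and 0.0542 without control kainate replicate 3), the cytochrome P450 Cyp1b1 by 0.73 (0.0443, and 0.142), and Cbfb, a partner of RUNX factors, by 0.67 (0.0464, and 0.107). C1d, an exosome cofactor, differed by 0.64 (0.0394, and 0.0956, and 0.0612 with the block), and Dnajc9, a histone and heat-shock co-chaperone, by 0.62 (0.0382, and 0.0624). Tmem176a lost its call without any of 5 arrays, Dnajc9 without any of 10, Cyp1b1 and Cbfb without any of 11, and C1d without any of 12. Probe set 97519_at, which has no gene name, had the largest difference of all (3.91, adjusted p = 0.015), but its control kainate arrays spread from 3.13 to 5.48 and it did not pass without control kainate replicate 3 (0.0558) or mutant kainate replicate 1 or 3 (up to 0.087). Probe set 96653_at, assigned to several genes, differed by 0.63 (adjusted p = 0.00989) and was lost only without mutant kainate replicate 3 (0.0778).

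**Figure D4:**
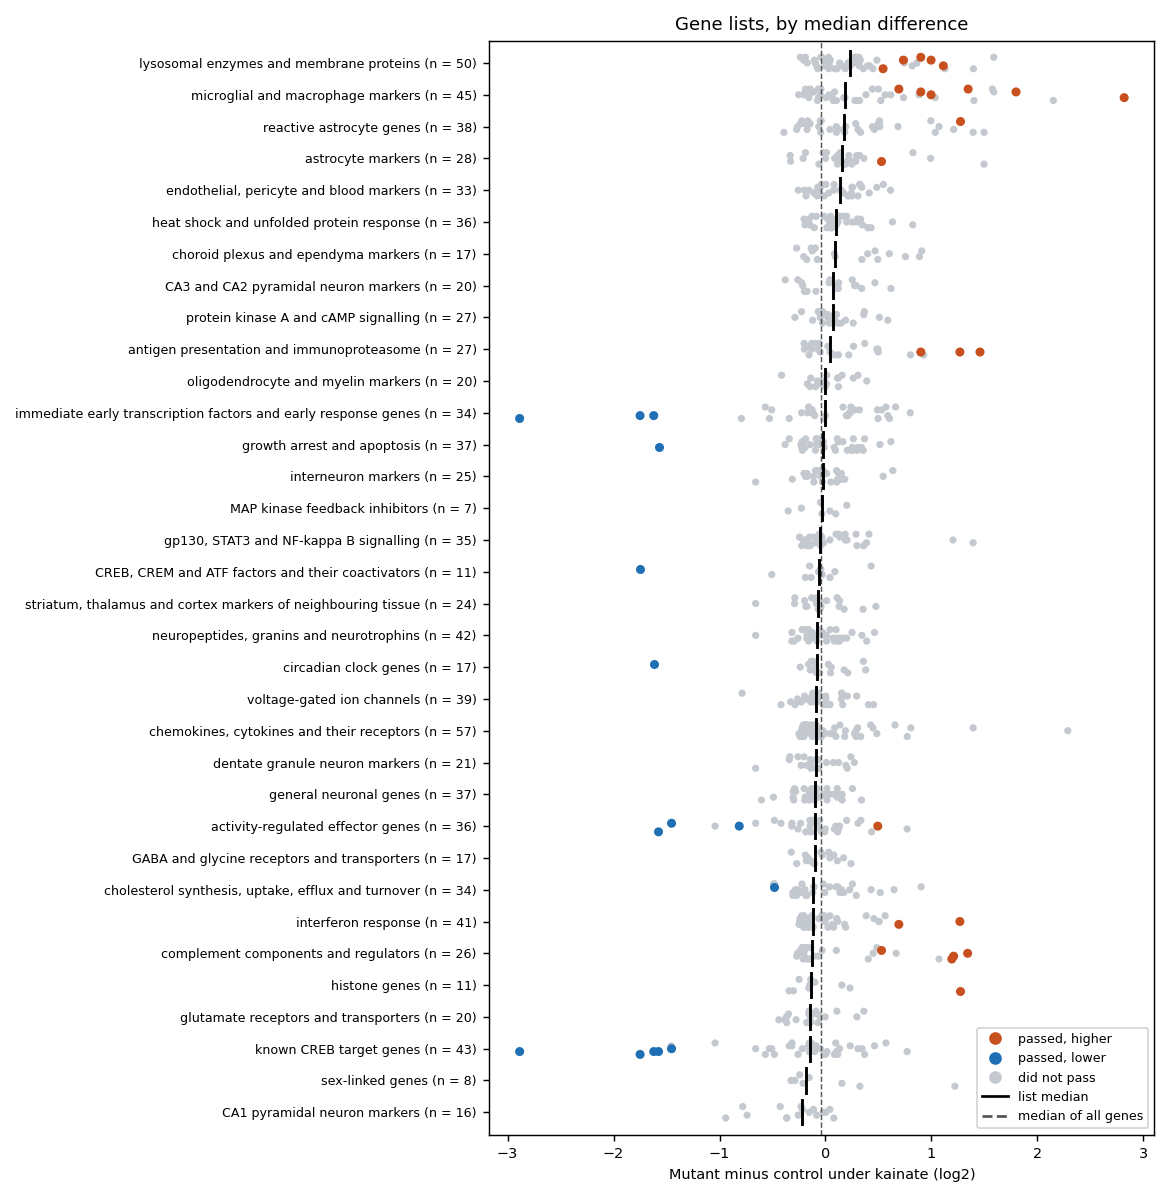
Difference between mutant and control kainate arrays (log2, horizontal axis) for every measured gene of 34 lists, ordered by list median (black bar), with genes that passed in orange (higher) or blue (lower) and a dashed line at the median of all 8251 genes. The lysosomal (0.229) and microglial (0.184) lists have the highest medians and several orange points, and the CA1 pyramidal neuron list the lowest (-0.224) with no gene that passed.

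Markers of the other cell types in the tissue were compared in the same fit. Of 37 general neuronal genes, 20 oligodendrocyte, 33 endothelial, pericyte and blood, 17 choroid plexus, 25 interneuron, 21 dentate granule neuron, 16 CA1 and 20 CA3 and CA2 markers, 0 passed in limma. At an unadjusted p under 0.05 there were 0 neuronal, 0 oligodendrocyte, 4 endothelial, pericyte and blood, 0 choroid plexus, 1 interneuron, 3 dentate, 4 CA1 and 3 CA3 and CA2 markers. Of all 12422 probe sets, 616 met that threshold. Neuronal and dentate markers were well expressed, with array means of 9.311 to 9.474 and 7.389 to 7.614 over the 6 kainate arrays, while markers of striatum, thalamus and cortex stayed at 4.269 to 4.363. CA1 markers had the lowest list median (-0.224, beside -0.172 under saline), and 13 of 16 differences were negative, beside 4632 of all 8251 genes. Wfs1, an endoplasmic reticulum protein that marks CA1, read 9.99, 9.73 and 9.51 in control kainate arrays and 8.87, 9.06 and 8.48 in mutant kainate arrays (-0.94, adjusted p = 0.139). With array weights, a fit that gave 99 calls, Wfs1 passed (-1.16, adjusted p = 0.0432 in limma). The CA1 marker Neurod6 differed by -0.43 (adjusted p = 0.53) and passed with array weights (-0.60, 0.0401). It also passed with replicate 1 as a batch and no control kainate replicate 3 (-0.69, 0.0311). Lefty1 and Pou3f1 differed by -0.78 and -0.74 (both adjusted p = 0.53). The mean of the CA1 list was 7.330 to 7.424 in control and 6.966 to 7.173 in mutant kainate arrays. Choroid plexus markers varied within groups, from 5.226 to 5.716 in control kainate and 5.347 to 5.926 in mutant kainate arrays. The part of microglial, astrocyte and CA1 marker levels in the other differences was not tested.

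Sex could not be balanced from the labels, since pools held males and females in unstated numbers. Xist, which is expressed from the inactive X chromosome of females, read 3.643, 6.495 and 3.917 in control kainate arrays and 3.69, 7.48 and 6.56 in mutant kainate arrays. The groups overlap (adjusted p = 0.576), and 0 of 8 sex-linked genes passed in limma, with 0 at an unadjusted p under 0.05.

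Several groups of genes had no call in the fit over all 12 arrays. Of 36 heat shock and unfolded protein response genes, 20 glutamate receptors and transporters, 17 GABA and glycine receptors and transporters, 39 voltage-gated ion channels, 42 neuropeptides, granins and neurotrophins, and 35 genes of gp130, STAT3 and NF-kappa B signalling, 0 passed in limma. In the same order, 4, 1, 0, 0, 4 and 3 of them had an unadjusted p under 0.05, as had 616 of all 12422 probe sets. Without control kainate replicate 3, 1 of the neuropeptide list was lower (Scg2). In the heat shock list 27 of 36 differences were positive (median 0.10, and 0.026 without control kainate replicate 3), beside 3619 of all 8251 genes. The co-chaperone Dnajb9 was 0.82 higher (adjusted p = 0.183) and the small heat shock protein Hspb8 0.63 higher (0.399). Of 34 cholesterol genes Cyp51 alone passed. The cholesterol exporter Abca1 was 0.90 higher (adjusted p = 0.0889) and the regulator Srebf1 0.65 higher (0.0662), both without passing in the fit over all arrays. Abca1 passed without control kainate replicate 2 (0.0182) and Srebf1 without control kainate replicate 1 (0.0402). Of 17 clock genes Nfil3, and of 37 growth arrest and apoptosis genes Gadd45b, was the only member that passed.

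The higher and lower genes differed in how they read under saline. For the 27 higher probe sets the median difference was 1.047 under kainate and 0.874 under saline. Of the 17 lower probe sets, 15 had the same sign under saline and 1 passed there, and the median difference was -1.164 under kainate and -0.234 under saline. Over all probe sets 73.7% had the same sign in both comparisons, and under saline 17 of 12422 passed (0.137%), or 30 with the replicate block. Kainate and saline comparisons use different arrays, but the 44 were chosen on the kainate arrays, and that choice favours larger kainate values. Both comparisons also share 1 error estimate per probe set, so a small error favours passing in both. The difference between both comparisons was tested as an interaction over all 12422 probe sets, and 0 passed in limma, with 107 at an unadjusted p under 0.05. The smallest p-values belonged to Atf3 (104156_r_at, -1.67), Fos (160901_at), Gadd45b (-1.46), Rasl11b (0.71) and the unnamed 102102_at (-0.84), each with an adjusted p of 0.333. Without control kainate replicate 3, 5 probe sets passed the interaction: both Atf3 probe sets (-2.19 and -1.83), Gadd45b (-1.66), Gpr19 (-0.97) and the unnamed 102102_at (-0.94), all with an adjusted p of 0.0248. With all 12 arrays weighted equally the interaction passed for no gene.

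**Figure D5:**
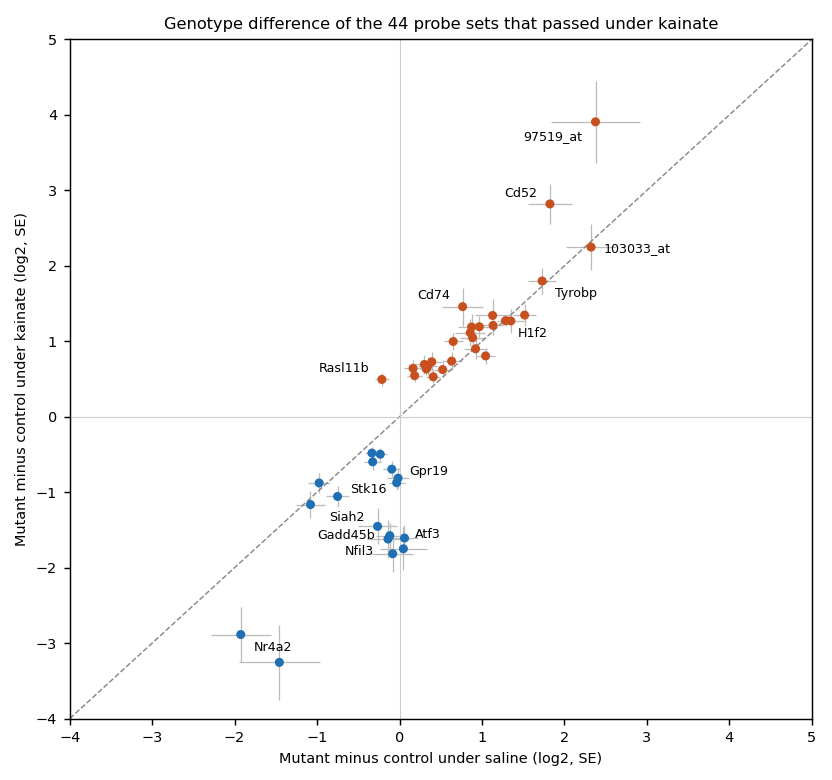
Difference between mutant and control arrays under saline (horizontal axis, log2) against that under kainate (vertical axis, log2) for the 44 probe sets that passed under kainate, with standard errors of the fit as bars and a dashed line of equal differences. Higher probe sets (orange) lie along the dashed line apart from a few such as Rasl11b, while Atf3, Gadd45b, Nfil3, Siah2 and Gpr19 (blue) lie near 0 under saline and between -0.81 and -1.82 under kainate.

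The calls differ in whether they held when single arrays were left out. A call ended by leaving out a saline array kept its difference, and only its error estimate and the adjustment changed. Such a loss shows a call near the threshold and not a difference that rests on that array. With each of the 12 arrays left out in turn, 11 of the 44 probe sets kept their call throughout: 8 higher (Cd52, Tyrobp, Mpeg1, C1qa, C1qb, Laptm5, Psmb8, H1f2) and 3 lower (Atf3 104156_r_at, Gadd45b 102779_at and 102102_at). The other 33 lost it at least once, with an adjusted p of up to 0.264. Mutant kainate replicate 3 gave the highest adjusted p when left out in 28 of the 33, and mutant kainate replicate 2 in 5. Replicates 2 and 3 alone gave 10 calls, 7 of them among the 44, and replicate 1 alone holds 1 array per group and allows no test. Of the 35 genes, 14 have several probe sets, and of their 12 probe sets that did not pass, 9 were below the median level of the array and the other 3 had the same sign as the one that passed.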

How the data were processed

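The deposited table holds log2 expression of 12488 probe sets on 12 MG-U74A arrays, which the authors made with GCRMA in R 2.4.1, per the submitters' processing notes. GCRMA corrects background by probe sequence, normalises and summarises probes, so small differences of dim probe sets depend on that step. Annotation and image analysis settings are not given in the sources used here. Scale was checked on the values (-0.78 to 14.35).

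Groups were read from the sample titles. After 66 control probe sets were left out, limma 3.58.1 (R 4.3.3) fitted 1 mean per group over 12 arrays (residual degrees of freedom 8, prior 2.48), with Benjamini-Hochberg adjustment over 12422 probe sets at 0.05. Contrasts were mutant minus control under kainate, the same under saline, and their difference. The scripts were tested on simulated data. Intervals use the moderated error of limma. Of 12422 probe sets, 10833 have 1 gene symbol in the platform annotation, 396 several and 1193 none, and 10817 matched RefSeq. For a gene with several probe sets, values come from the probe set with the highest mean, or the highest mean among those that passed. Only probe sets with 1 symbol were given a gene name.

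Named genes are, among probe sets that passed without overlap between kainate arrays, the 25 with the largest rise and the 25 with the largest fall, every list member that passed, up to 4 members of each list with the smallest p that did not, Creb1, Crem and the 5 genes with the smallest interaction p. Other genes were named after their values were seen. The members and the 34 gene lists were chosen with earlier results of these data known. 1 gene that passed is counted but not reported here by name. Lists are described by counts and medians with no set test.

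The labels give each group replicates 1, 2 and 3 without saying what a number shares. Deviations from the group mean correlated between same-numbered control and mutant kainate arrays at 0.745, 0.315 and 0.376, and between saline arrays at 0.848, 0.583 and 0.621. Control replicate 2 with mutant replicate 3, and control 3 with mutant 2, gave 0.568 and 0.522 under saline. Under kainate these gave 0.272 and 0.22. The values thus set replicate 1 apart, and mark a pairing within replicates 2 and 3 only weakly. The fit with the number as a block, which takes the numbers to pair the genotypes, is an alternative. Other alternatives were replicate 1 as a batch, replicates 2 and 3 only, quantile normalisation, median centring, a level filter, a trended robust prior, only the compared arrays, array weights, averaging per gene, a 1.5-fold minimum and each array left out. Each array is a pool of 3 animals, so p-values measure the spread between pools.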

Additional observations from a re-analysis of the deposited data

How the results depend on the processing

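The count of probe sets that passed under kainate, 44 in the reported fit, was 77 with replicate 1 as a batch, 10 with replicates 2 and 3 only, 20 with array medians centred, 5 with only the arrays compared, 99 with array weights and 29 of 8251 genes with probe sets averaged per gene, and from 12 to 38 with 1 array left out. Leaving out mutant kainate replicate 3 gave 12, mutant saline replicate 2 gave 20, control kainate replicate 2 and mutant kainate replicates 1 and 2 gave 21 each, mutant saline replicate 3 gave 22, and control saline replicates 2 and 3 gave 28 and 26. It stayed within 1.5 times with quantile normalisation (42), probe sets above the median level (30), a trended robust prior (35) and a 1.5-fold minimum (39). A like count did not mean the same probe sets, since 30 of the 42 with quantile normalisation were among the 44. With the trended robust prior 33 of 35 were, and with only the arrays compared 3 of 5. Under saline the count of 17 became 38 with replicate 1 as a batch, 2 with replicates 2 and 3 only, 680 with array weights, 11 averaged per gene, and 8 to 20 with 1 array left out. A fit chosen after seeing the data, with replicate 1 as a batch and no control kainate replicate 3, gave 73 calls under kainate, 70 under saline and 6 for the interaction, which otherwise gave 0 except 8 with array weights and 0 to 5 with 1 array left out.

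With the replicate number as a block, 67 probe sets passed under kainate, 30 under saline and 0 for the interaction. The kainate block added calls for 28 probe sets and ended 5; beside the genes given above, no other named call changed. Across all 4 groups the numbers did not pair throughout, since control kainate replicate 3 correlated at -0.0109 and -0.00323 with the saline arrays of its number.

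Over 167 named results and 3966 values under the alternatives, 0 of the called values turned direction, 411 lost a call and 57 gained one. In 8 results that did not pass, 14 values changed sign, among them Clock and Dusp16 without control kainate replicate 3 (0.211 to -0.036 and 0.201 to -0.021). The cause of these changes was not tested, and the fits that leave arrays out also hold fewer arrays. The main limits are 3 pools per group, 1 narrow control kainate array, dim probe sets for Creb1 and Crem, and mutants whose construction is not described in the labels.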

Other observations

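With the replicate number as a block, some genes outside the lists also passed under kainate, and they were named after their values were seen. Among those lower in mutants were Kif5c, a neuronal kinesin (difference -0.88, adjusted p = 0.0401 in limma), Nolc1, a nucleolar protein (-0.65, 0.019), and Sez6, a seizure-related membrane protein of neurons (-0.51, 0.0295). Among those higher were Pef1, a calcium-binding protein (0.77, 0.00747), Dctn3, a dynactin subunit (0.63, 0.0253), Itgb5, an integrin subunit (0.58, 0.0303), and Lsm2, an RNA-processing protein (0.95, 0.0492). None of these passed in the fit without the block, and each is a value with no explanation offered.

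With array weights, which lower the weight of arrays that deviate from their group, the interaction passed for 8 probe sets: both Atf3 probe sets (-2.23 and -2.03), both Gadd45b probe sets (-2.05 and -1.69), Siah2 (-1.56), Gpr19 (-1.01), 102102_at (-0.95) and Rasl11b (0.73). Adjusted p-values ran from 0.000114 for 102102_at to 0.0206 for Rasl11b. The weights, from limma's gene-by-gene method, ran from 0.032 for control kainate replicate 3 to 6.17 for control saline replicate 2. In that fit 680 probe sets passed under saline, against 17 with equal weights. Its adjusted p-values are therefore not comparable with those of the reported fit.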
